A study of Mus musculus with 8 samples.

Results

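Fatty acid and triglyceride synthesis was followed through 32 genes, taken as a fixed list of symbols from citrate export to triglyceride assembly. The list was chosen with earlier results of these data known. Of the 32 genes, 30 had a named probe on the array. All 30 passed the filter on dim probes, among 9766 genes tested of 16593 on the array. Acacb and Pnpla3 were not analysed here. Each gene was read through its probe with the highest mean signal. The members fell into 6 roles, with 6 tested genes of carbon supply and fatty acid synthesis, 4 regulators, 5 elongases, 4 desaturases, 3 acyl-CoA synthetases and 8 genes of esterification. Between the genotype labels under GW4064, 3 of the 30 were higher in Fxr-/- (Acaca, Acsl4 and Mid1ip1) and 3 were lower (Slc25a1, Elovl5 and Acsl5), where 14.6% of all genes tested passed. GW4064 itself changed 0 of the 30 past the threshold in Fxr+/+, where 0.0205% of all genes passed, and 0 of the 30 in Fxr-/-, where 0.0717% passed.

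Liver RNA of male mice aged 10 to 12 weeks was measured on Illumina bead arrays, in mice labelled Fxr+/+ or Fxr-/- and gavaged 2 times a day for 7 days with GW4064 at 30 mg/kg or with vehicle alone. The 4 groups were Fxr+/+ vehicle, Fxr+/+ GW4064, Fxr-/- vehicle and Fxr-/- GW4064, each deposited as 2 arrays, and each array held RNA pooled from 3 to 4 animals. GW4064 is a small molecule made to activate FXR, the farnesoid X receptor for bile acids, which Nr1h4 encodes. The strain, the vehicle, and the way the Fxr allele was disrupted are not given in the sources used here. Replicate 2 of Fxr-/- vehicle was left out because its values were whole numbers from 14 to 139 that did not follow the other arrays (highest Spearman correlation 0.0559). Fxr-/- vehicle thus rests on 1 array, whose spread is taken from the remaining groups. P-values measure the spread between these pooled arrays, which may be partly technical.

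The targeted gene, Nr1h4, still gave signals of 1852 to 3272 on the 3 arrays labelled Fxr-/-, against 3328 to 4411 on the 4 Fxr+/+ arrays. Whether its probe lies inside the disrupted part of the gene is not known here, and every direction between genotypes rests on the labels. The first principal component held 64.2% of the variance and separated the labels. Of 8 hepatocyte markers 6 exceeded a signal of 39.5, taken as the range of the background, while Tat and Fgb did not, and the Alb probe read 81.6 to 169. Neutrophil markers moved with the label: all 5 with a probe were lower in Fxr-/- under GW4064, with summed signals of 222 and 301 against 3057 and 3058 in Fxr+/+, and of 929 against 1228 and 3094 under vehicle. Lymphocyte markers were lower too (2 of 4 tested, sums of 155 and 177 against 384 and 476 under GW4064). Of the 7 adipocyte markers with a probe, 2 rose above 39.5 on any array, and Adipoq, Plin1, Lep, Fabp4 and Retn did not. Under GW4064 macrophage sums were also lower in Fxr-/-, at 1203 and 1456 against 2042 and 2226. Endothelial sums were 2038 and 3271 against 3303 and 3680, and hepatocyte sums 83624 and 115710 against 122250 and 126900. No macrophage or endothelial marker passed. Adipocyte and bile duct sums were higher in Fxr-/-, and matrix and pancreatic acinar sums overlapped. Single adipocyte, bile duct and hepatocyte markers differed between labels under GW4064. Cidea (adipocyte) and Sox9 (bile duct) were higher in Fxr-/-, by 1.33 and 1.04 on the log2 scale, and Serpina1a (hepatocyte) was lower, at -1.66 (limma adjusted p = 0.00971, 0.0379 and 0.00198). Cidea read 45.9 and 35.4 in Fxr-/- against 10.4 and 3.0 in Fxr+/+. Only the 45.9 exceeded the background, and Cidea was at least 1.08-fold higher. Under vehicle Fgb was higher with all signals within the background, and Serpina1a, Mpo (neutrophil) and Col3a1 (matrix) were lower. In liver tissue, fewer cells of a type and less RNA per cell cannot be told apart, and the part of other cells in the differences below was not tested.

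Liver makes fatty acids from citrate that leaves the mitochondrion, is split to acetyl-CoA, carboxylated to malonyl-CoA and built into palmitate. Palmitate is then activated to acyl-CoA, elongated and desaturated at the endoplasmic reticulum, and esterified step by step to glycerol 3-phosphate until triglyceride forms. The insulin-driven factor SREBP-1c and the carbohydrate-sensing factor ChREBP are known to switch many of these genes on together, and SREBP-1c is itself a target of the oxysterol receptor LXR.

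The promoters of 4 of the 6 members past the threshold under GW4064 are shown, and these genes differed between the labels in opposite directions within 1 pathway. Slc25a1, Elovl5 and Acsl5 were lower, and Acsl4 was higher, in Fxr-/-. Each stretch holds 300 bases, from 250 before to 50 after the annotated start, read 5′ to 3′ on the gene's strand from RefSeq on assembly GRCm38.p6. Capitals mark the E-box CACGTG and the CCAAT box, which reads ATTGG where it lies on the opposite strand. The windows are chr16:17928170-17928469 on the minus strand for Slc25a1, chr9:77917115-77917414 on the plus strand for Elovl5, chr19:55253119-55253418 on the plus strand for Acsl5 and chrX:142390486-142390785 on the minus strand for Acsl4.
Slc25a1: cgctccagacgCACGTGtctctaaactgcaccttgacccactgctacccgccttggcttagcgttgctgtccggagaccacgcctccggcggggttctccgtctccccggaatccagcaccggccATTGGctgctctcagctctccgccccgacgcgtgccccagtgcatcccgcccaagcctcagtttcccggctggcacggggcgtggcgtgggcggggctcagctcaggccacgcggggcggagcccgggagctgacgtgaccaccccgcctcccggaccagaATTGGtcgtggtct
Elovl5: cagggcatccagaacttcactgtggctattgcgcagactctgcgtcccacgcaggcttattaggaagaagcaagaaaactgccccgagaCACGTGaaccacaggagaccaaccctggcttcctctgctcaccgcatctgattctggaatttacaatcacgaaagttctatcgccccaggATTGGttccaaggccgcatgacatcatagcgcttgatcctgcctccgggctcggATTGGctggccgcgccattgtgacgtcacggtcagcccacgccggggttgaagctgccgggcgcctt
Acsl5: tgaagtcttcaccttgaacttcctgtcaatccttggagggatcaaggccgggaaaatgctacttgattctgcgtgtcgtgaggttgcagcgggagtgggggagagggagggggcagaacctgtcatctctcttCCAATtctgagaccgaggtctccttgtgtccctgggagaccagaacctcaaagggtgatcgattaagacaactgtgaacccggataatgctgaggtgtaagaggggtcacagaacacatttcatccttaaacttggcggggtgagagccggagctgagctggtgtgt
Acsl4: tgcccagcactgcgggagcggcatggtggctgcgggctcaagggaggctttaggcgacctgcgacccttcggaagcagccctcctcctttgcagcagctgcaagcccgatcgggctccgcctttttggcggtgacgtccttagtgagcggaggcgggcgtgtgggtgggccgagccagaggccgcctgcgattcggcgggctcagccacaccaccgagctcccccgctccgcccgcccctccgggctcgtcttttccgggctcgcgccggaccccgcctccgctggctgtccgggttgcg

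Slc25a1 held an E-box whose first base lay at -239 from the start and CCAAT boxes at -125 and 37. In Elovl5 the E-box lay at -161 and CCAAT boxes at -71 and -17, Acsl5 had 1 CCAAT box at -117, and the Acsl4 window held neither. The windows of Acaca and Mid1ip1, which were higher in Fxr-/- and are not shown, also held neither. The 26 member genes with an entry had 36 promoters in the table. CACGTG stood, on either strand, in 4 of these 36 promoters (of Elovl5, Lpin2, Mlxipl and Slc25a1) and in 7.15% of all 32851 promoters. CCAAT stood in 18 of the 36, in 17 genes, and in 37.4% of all promoters. The SREBP-type element TCACNCCAC was found in 1 of the 36, of Mlxipl, against 1.24% of all promoters. An exact inverted repeat of AGGTCA spaced by 1 base (IR1), the type of element FXR is known to bind, and an exact direct repeat of AGGTCA spaced by 4 bases (DR4), the type LXR is known to bind, each stood in 0 of the 36, against 0.00913% and 0.0152% of all promoters. These matches describe letters in the window and not binding. Elovl3, Fads1, Scd1, Scd2, Dgat1 and Dgat2 had no entry.

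**Figure D1:**
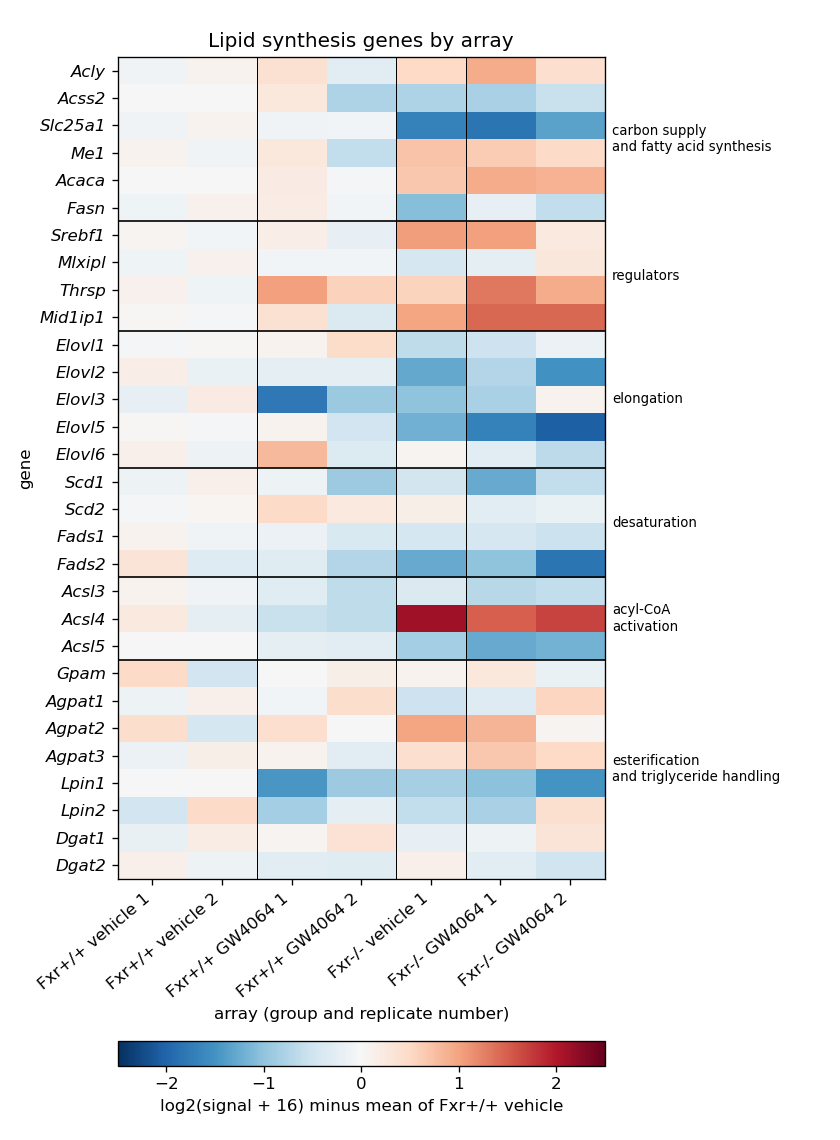
Each row is 1 of the 30 measured genes, grouped by role, and each column is 1 of the 7 arrays, with colour giving log2(signal + 16) minus the gene's mean over the Fxr+/+ vehicle arrays. The Acsl4 row is high on all 3 arrays labelled Fxr-/-, the Slc25a1, Elovl5 and Acsl5 rows are low there, and the esterification rows show no shared direction.

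The comparison of genotype labels under GW4064 asked which lipid synthesis genes differed with the Fxr label in animals given the agonist. It set 2 arrays against 2. Past the threshold (adjusted p under 0.05 in limma, over all 9766 genes) were 6 of 30 members (20.0%), against 14.6% of all genes tested. Of these, 3 members were higher, against 5.47% of all genes, and 3 were lower, against 9.14%. The median log2 difference was -0.08 over the members and 0.08 over all genes tested, and the median size of a difference was 0.59 and 0.33. Under vehicle, 1 array against 2, 2 of 30 members passed (6.67%), against 6.85% of all genes. Acsl4 was higher, against 1.85% of all genes, and Slc25a1 was lower, against 5.0%. With the replicate number as a block the vehicle count was 6 of 30, against 9.93% of all genes. It took in Elovl2, Elovl5, Fads2 and Fasn, all lower in Fxr-/-. Under GW4064 the block gave 9 of 30, against 20.5% of all genes, and took in Elovl2 and Fads2, lower, and Elovl3, higher in Fxr-/-.

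**Figure D2:**
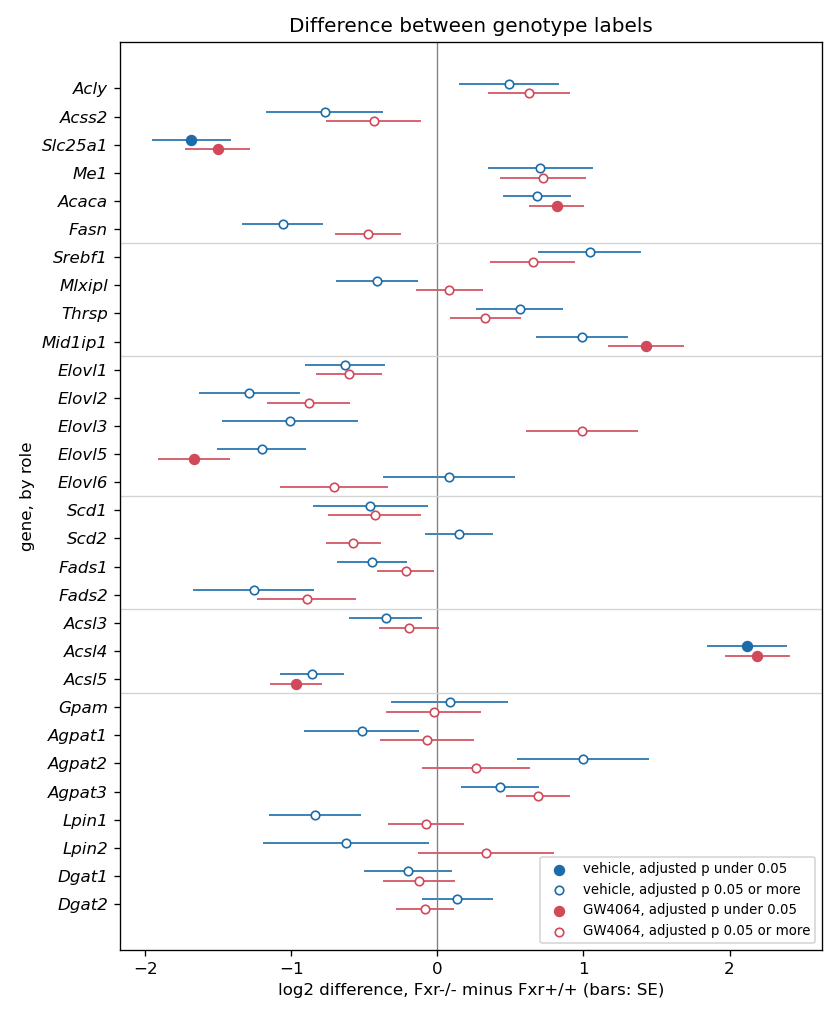
The horizontal axis gives the log2 difference between Fxr-/- and Fxr+/+ for each of the 30 genes, under vehicle in blue and under GW4064 in red, with bars for the standard error and filled points for an adjusted p under 0.05. Acsl4 stands alone on the right near 2.1 and 2.2 on the log2 scale. Farthest to the left lie Slc25a1 under vehicle, and Elovl5 and Slc25a1 under GW4064.

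Carbon supply and fatty acid synthesis split by gene. Slc25a1 (probe ILMN_2919263), the mitochondrial citrate carrier that exports the carbon for lipogenesis, had signals of 2507 and 2802 in Fxr+/+ vehicle, 2494 and 2521 in Fxr+/+ GW4064, 815 in Fxr-/- vehicle, and 733 and 1042 in Fxr-/- GW4064. All 3 arrays labelled Fxr-/- lay below all 4 Fxr+/+ arrays, with a wide gap. The log2 difference was -1.50 (SE 0.223, limma adjusted p = 0.00485) under GW4064, a ratio of means of 0.354, and -1.68 (SE 0.273, limma adjusted p = 0.0125) under vehicle. A second Slc25a1 probe, on arrays where it read 294, 290 and 327 in Fxr-/- against 813 to 959 in Fxr+/+, gave -1.41 (limma adjusted p = 0.00484) and -1.63 (limma adjusted p = 0.0109). Without the filter on dim probes the main probe did not pass (limma adjusted p = 0.069 under GW4064 and 0.0732 under vehicle), within ranges of 0.000428 to 0.069 and 0.0014 to 0.0732 over 17 alternatives each.

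Acaca (probe ILMN_1258600), acetyl-CoA carboxylase 1, which makes malonyl-CoA in the cytosol, moved the other way. Its signals were 3190.3 and 3261 in Fxr+/+ vehicle, 3719 and 3140.2 in Fxr+/+ GW4064, 5187 in Fxr-/- vehicle, and 6146 and 5912 in Fxr-/- GW4064. The labels did not overlap. Under GW4064 the log2 difference was 0.82 (SE 0.188, limma adjusted p = 0.0271), and under vehicle 0.68 (SE 0.231, limma adjusted p = 0.123). The call under GW4064 did not hold without Fxr+/+ GW4064 replicate 1 (limma adjusted p = 0.088), Fxr+/+ GW4064 replicate 2 (0.193), Fxr-/- GW4064 replicate 1 (0.0848) or Fxr-/- GW4064 replicate 2 (0.0964), and its adjusted p ran from 0.00447 to 0.193 over 17 alternatives.

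Fasn, the fatty acid synthase that builds palmitate, lay on the side of Slc25a1 without passing. Its probe was dim, at 103 and 123 in Fxr+/+ vehicle, 131 and 106 in Fxr+/+ GW4064, 45.7 in Fxr-/- vehicle, and 95.5 and 67.3 in Fxr-/- GW4064. Every Fxr-/- array was below every Fxr+/+ array. The log2 difference was -1.06 (SE 0.277, limma adjusted p = 0.0665) under vehicle and -0.47 (SE 0.227, limma adjusted p = 0.213) under GW4064.

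Acly, Me1 and Acss2 did not pass in either comparison. Acly, the ATP citrate lyase that cleaves citrate to acetyl-CoA, read 6510 to 10242 on the 4 Fxr+/+ arrays and 10568 to 15035 on the 3 labelled Fxr-/-. Me1, the cytosolic malic enzyme that supplies NADPH, read 1778 to 3282 and 3788 to 4446. Both sets were separate, with the Fxr-/- arrays higher, and the log2 differences were 0.63 for Acly and 0.72 for Me1 under GW4064 (limma adjusted p = 0.187 and 0.151). Without Fxr+/+ GW4064 replicate 2 they were 0.30 and 0.28, and without Fxr+/+ GW4064 replicate 1 0.95 and 1.16. Without Fxr-/- GW4064 replicate 1 the Acly difference was 0.37. Acss2, which activates acetate, read 2409 to 4946 in Fxr+/+ and 2324 to 2796 in Fxr-/-, and these overlapped. Its difference under GW4064 was -0.44 and turned to 0.08 without Fxr+/+ GW4064 replicate 1.

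Among the regulators, Mid1ip1 passed under GW4064. It encodes a protein that promotes the polymerisation of acetyl-CoA carboxylase. Its probe (ILMN_2847332) read 936 and 908 in Fxr+/+ vehicle, 1200 and 715 in Fxr+/+ GW4064, 1847 in Fxr-/- vehicle, and 2521 and 2517 in Fxr-/- GW4064. The 3 arrays labelled Fxr-/- were all above the highest Fxr+/+ array. The log2 difference was 1.43 (SE 0.259, limma adjusted p = 0.0109) under GW4064 and 0.99 (SE 0.317, limma adjusted p = 0.109) under vehicle. Without Fxr+/+ GW4064 replicate 2 the adjusted p under GW4064 was 0.0667, and without Fxr-/- GW4064 replicate 2 it was 0.0643, within a range of 0.00156 to 0.121 over 17 alternatives, the highest of these without the filter on dim probes.

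Srebf1, which encodes SREBP-1, read 398 and 362 in Fxr+/+ vehicle, 429.5 and 327 in Fxr+/+ GW4064, 798 in Fxr-/- vehicle, and 794 and 449.5 in Fxr-/- GW4064. The Fxr-/- arrays lay above the Fxr+/+ arrays, one of them by a small margin. Differences of 1.04 under vehicle and 0.65 under GW4064 on the log2 scale did not pass (limma adjusted p = 0.125 and 0.184), and the second was 0.25 without Fxr-/- GW4064 replicate 1 and 1.05 without Fxr-/- GW4064 replicate 2. Thrsp, the Spot 14 protein related to the Mid1ip1 product, differed by 0.56 and 0.33 (limma adjusted p = 0.289 and 0.419). Mlxipl, which encodes ChREBP, differed by -0.41 under vehicle and 0.08 under GW4064 (limma adjusted p = 0.415 and 0.852), and its signals on the 7 arrays ran from 1990.0 to 3223 with the labels overlapping.

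Of the 5 elongases 1 passed, under GW4064, and 4 of 5 estimates were below 0 under each treatment. The exception under vehicle was Elovl6, at 0.08, which was -0.22 with the replicate block. Elovl5 (probe ILMN_2652757), which lengthens polyunsaturated fatty acids, read 10767 and 10276 in Fxr+/+ vehicle, 11157 and 7499 in Fxr+/+ GW4064, 4560 in Fxr-/- vehicle, and 3249 and 2544 in Fxr-/- GW4064. The highest Fxr-/- array stood well below the lowest Fxr+/+ array. The log2 difference was -1.66 (SE 0.248, limma adjusted p = 0.00494) under GW4064 and -1.20 (SE 0.304, limma adjusted p = 0.0596) under vehicle. With the replicate block the vehicle difference was -1.37 (limma adjusted p = 0.0221, within 0.0136 to 0.19 over 17 alternatives). Without the filter on dim probes the call under GW4064 did not hold (limma adjusted p = 0.0875, within 0.000342 to 0.0875).

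Elovl2, which elongates longer polyunsaturated chains after the Elovl5 step, read 1325 and 1039 in Fxr+/+ vehicle, 988 and 1003 in Fxr+/+ GW4064, 471 in Fxr-/- vehicle, and 704 and 403 in Fxr-/- GW4064. Here too the labels were separate, with Fxr-/- lower. The log2 differences of -1.29 under vehicle and -0.88 under GW4064 did not pass (limma adjusted p = 0.0691 and 0.0798), whereas they did with the replicate block, at -1.47 and -0.88 (limma adjusted p = 0.0305 and 0.0385). Without Fxr-/- GW4064 replicate 1 the difference under GW4064 was -1.27 and passed (limma adjusted p = 0.0291), and without Fxr-/- GW4064 replicate 2 it was -0.49 (limma adjusted p = 0.312). Over 17 alternatives its adjusted p ran from 0.0291 to 0.312, and from 0.0239 to 0.241 under vehicle.

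Elovl1, Elovl3 and Elovl6 did not pass. Elovl1, which acts on saturated and monounsaturated very long chains, read 1165 to 1656 in Fxr+/+ and 766 to 1082 in Fxr-/-, and differed by -0.63 under vehicle and -0.60 under GW4064 (limma adjusted p = 0.211 and 0.121). Its 3 further probes gave -0.57, -0.01 and 0.19 under vehicle, so that 1 was near 0 and 1 went the other way. Under GW4064 they gave -0.82, -0.98 and -0.65, and none passed. Elovl6, which lengthens palmitate to stearate, read 1252 to 2833 in Fxr+/+ and 1007 to 1688 in Fxr-/-, with overlap. Elovl3, an elongase of very long chains, changed side, with a difference of -1.01 under vehicle and 0.99 under GW4064 (limma adjusted p = 0.235 and 0.133).

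None of the 4 desaturases passed under either treatment. Fads2, the delta-6 desaturase that starts polyunsaturated synthesis, read 1650.4 and 1064 in Fxr+/+ vehicle, 1066 and 794 in Fxr+/+ GW4064, 545 in Fxr-/- vehicle, and 656 and 362 in Fxr-/- GW4064. Each Fxr-/- array was lower than each Fxr+/+ array. The log2 differences were -1.26 under vehicle and -0.89 under GW4064 (limma adjusted p = 0.115 and 0.128), and with the replicate block -1.57 and -0.89 (limma adjusted p = 0.0119 and 0.0178, the lowest of 0.0119 to 0.353 and of 0.0178 to 0.473 over 17 alternatives each). Fads1, the delta-5 desaturase, was also separate, at 9457 to 13002 against 8485 to 9176, with smaller differences of -0.45 and -0.22 (limma adjusted p = 0.292 and 0.514).

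Scd1, the stearoyl-CoA desaturase that makes oleate in liver, read 28210.1 and 33237 in Fxr+/+ vehicle, 28210.1 and 16370.1 in Fxr+/+ GW4064, 22291 in Fxr-/- vehicle, and 12776 and 19912 in Fxr-/- GW4064. The labels overlapped, since Fxr+/+ GW4064 replicate 2 was below 2 of the 3 Fxr-/- arrays. Its differences were -0.46 and -0.43 (limma adjusted p = 0.52 and 0.424). Scd2, its paralog that is low in adult liver, stayed between 40.2 and 78.1 on all 7 arrays, with differences of 0.15 under vehicle and -0.58 under GW4064 (limma adjusted p = 0.739 and 0.0872).

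Acyl-CoA activation held the largest difference of the 30 genes. Acsl4 (probe ILMN_3136205), a synthetase that prefers arachidonic acid, read 201 and 138 in Fxr+/+ vehicle, 108 and 102 in Fxr+/+ GW4064, 779 in Fxr-/- vehicle, and 502 and 573 in Fxr-/- GW4064. All 3 Fxr-/- arrays were far above all 4 Fxr+/+ arrays. Its log2 difference was 2.19 (SE 0.223, limma adjusted p = 0.00108) under GW4064, a ratio of means of 5.12, and 2.12 (SE 0.274, limma adjusted p = 0.00563) under vehicle. Of 2 other Acsl4 probes that were kept, one gave 1.96 (limma adjusted p = 0.00338) and the other 1.18 (limma adjusted p = 0.0646) under GW4064.

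Acsl5 (probe ILMN_2892222), a synthetase of liver and intestine that supplies acyl-CoA for lipid synthesis, went down. It read 9942 and 9798 in Fxr+/+ vehicle, 8424 and 8175 in Fxr+/+ GW4064, 5445 in Fxr-/- vehicle, and 4129.5 and 4355.5 in Fxr-/- GW4064. The labels were separate. The log2 difference was -0.97 (SE 0.179, limma adjusted p = 0.0116) under GW4064 and -0.86 (SE 0.219, limma adjusted p = 0.0614) under vehicle. The call under GW4064 did not hold without Fxr+/+ GW4064 replicate 1 (limma adjusted p = 0.0869), Fxr+/+ GW4064 replicate 2 (0.0814) or Fxr-/- GW4064 replicate 2 (0.0509), within a range of 0.00115 to 0.0869 over 17 alternatives. Acsl3, a lipid-droplet synthetase, read 209 to 357 in Fxr+/+ and 199 to 257 in Fxr-/- and did not pass (limma adjusted p = 0.43 under vehicle and 0.581 under GW4064).

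**Figure D3:**
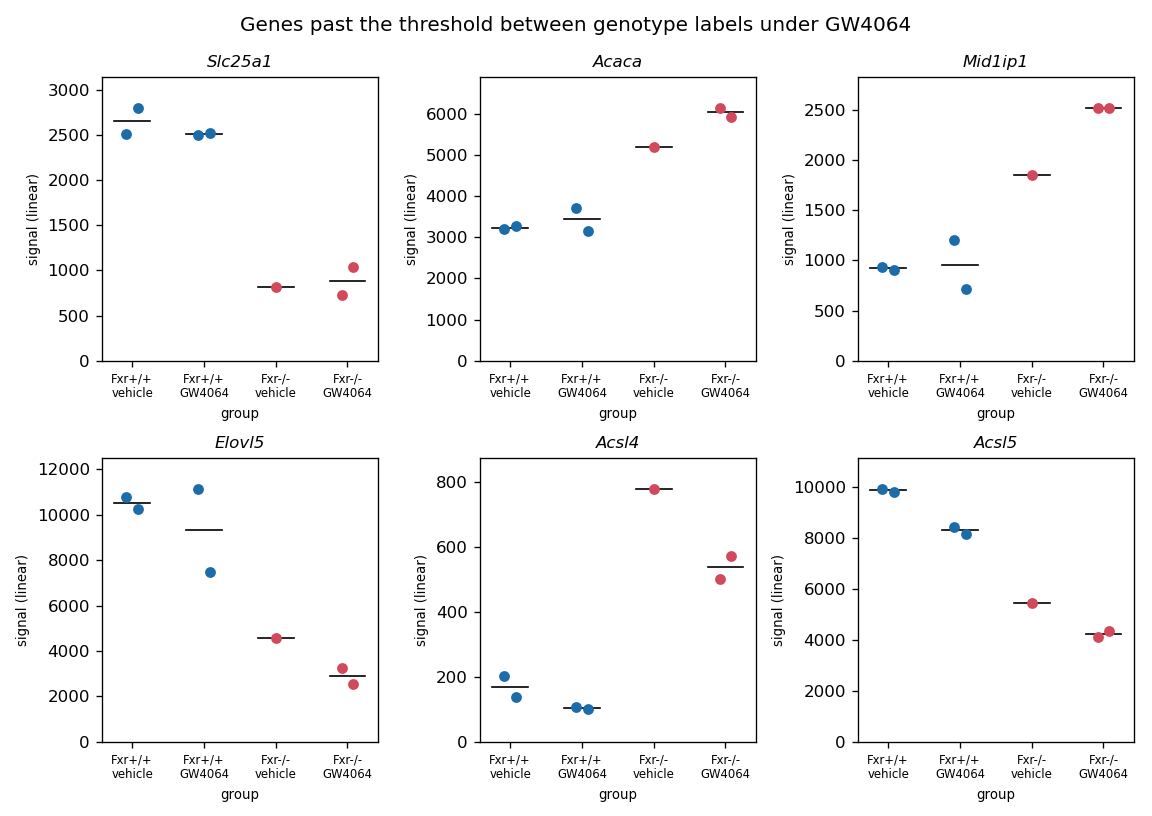
Each panel plots the linear signal of 1 of the 6 genes past the threshold between labels under GW4064, with 1 point per array, a bar at the group mean and Fxr-/- vehicle as a single array. In every panel the 3 points labelled Fxr-/- lie on one side of the 4 labelled Fxr+/+.

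Esterification had 0 of 8 genes past the threshold under vehicle and 0 of 8 under GW4064. Its median log2 difference was -0.06 under vehicle and -0.05 under GW4064, with a median size of 0.47 under vehicle (0.37 over all genes tested) and 0.11 under GW4064 (0.33 over all genes tested). Agpat3, a lysophosphatidic acid acyltransferase family member, came nearest under GW4064. Its signals were 480 to 647 in Fxr+/+ and 795 to 951 in Fxr-/-, without overlap, and its difference of 0.69 (SE 0.218) did not pass (limma adjusted p = 0.0769). It did pass with an offset of 100, the filter at percentile 75, or trend and robust variance (limma adjusted p = 0.0302, 0.0383 and 0.0337). The difference ran from 0.51 to 0.87 when 1 array was left out. Agpat2, the acyltransferase whose loss causes lipodystrophy, differed by 0.99 under vehicle and 0.26 under GW4064 (limma adjusted p = 0.228 and 0.692), the first 0.55 without Fxr+/+ vehicle replicate 2 and 1.44 without Fxr+/+ vehicle replicate 1. Lpin1, a phosphatidate phosphatase that makes diacylglycerol, differed by -0.84 under vehicle and -0.08 under GW4064 (limma adjusted p = 0.158 and 0.879).

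Among the members, the first and last enzymes of the esterification route showed small estimates with wide intervals. Gpam, the mitochondrial glycerol 3-phosphate acyltransferase, differed by -0.02 under GW4064, with a 95% interval from -0.78 to 0.73. Dgat1 and Dgat2, which add the last acyl chain, differed by -0.13 (-0.70 to 0.45) and -0.09 (-0.55 to 0.37). Lpin2, a paralog of Lpin1, and Agpat1, another lysophosphatidic acid acyltransferase, gave 0.33 (-0.75 to 1.41) and -0.07 (-0.82 to 0.68). Under vehicle the single Fxr-/- array of Agpat1 read 36.4, within the range of the background, so that Agpat1 was at least 1.49-fold lower there, a difference that did not pass (limma adjusted p = 0.466).

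The vehicle and GW4064 comparisons of the labels share no array. Their signs matched for 23 of 30 members (76.7%) and for 73.2% of all genes tested, so that the members stood close to the background. The 7 members with opposite signs were Dgat2, Elovl3, Elovl6, Gpam, Lpin2, Mlxipl and Scd2. Over all 7 arrays, the labels did not overlap for 15 of 30 members, 7 higher and 8 lower in Fxr-/-, against 35.2% of all genes (19.2% higher and 16.1% lower).

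A contrast chosen after the data were seen averaged the label difference over both treatments. In it 11 of 30 members passed (36.7%), against 22.3% of all genes tested, and 11 of 30 also with the replicate block, against 29.2%. Without the block 4 were higher (9.73% of all genes) and 7 lower (12.6%). Acaca, Acsl4, Mid1ip1 and Srebf1 were higher in Fxr-/-, by 0.75, 2.16, 1.21 and 0.85 on the log2 scale. Slc25a1, Elovl5, Elovl2, Fads2, Acsl5, Fasn and Elovl1 were lower, at -1.59, -1.43, -1.08, -1.08, -0.91, -0.76 and -0.62. By role these were 3 of 6 genes of carbon supply and synthesis, 2 of 4 regulators, 3 of 5 elongases, 1 of 4 desaturases, 2 of 3 acyl-CoA synthetases and 0 of 8 genes of esterification.

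The next comparison asked what GW4064 did to lipid synthesis genes in Fxr+/+ mice, 2 arrays against 2. Of the 30 members 0 passed in limma, against 0.0205% of all genes tested (2 genes). At an unadjusted p under 0.05 there were 4 members, Lpin1, Elovl3 and Acsl4 lower and Thrsp higher, against 5.06% of all genes (494 genes). Groups did not overlap for 11 of 30 members, 3 higher and 8 lower with GW4064, against 33.5% of all genes (15.8% higher and 17.7% lower). The median log2 change was -0.09 over the members and -0.01 over all genes tested.

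Lpin1 had the smallest p of the members. Its signal was 2634 and 2599 in Fxr+/+ vehicle and 940 and 1387 in Fxr+/+ GW4064, and 1459, 1279 and 915 on the Fxr-/- arrays, the first of these with vehicle. The Fxr+/+ vehicle arrays stood above the 5 others. The log2 change with GW4064 in Fxr+/+ was -1.19 (SE 0.258), with an unadjusted limma p of 0.00206 and an adjusted p of 0.615. In Fxr-/- it was -0.43 (SE 0.316, limma adjusted p = 0.768).

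Elovl3 showed the largest estimate. It read 291.5 and 394 in Fxr+/+ vehicle, 87.3 and 171 in Fxr+/+ GW4064, 160.4 in Fxr-/- vehicle, and 186 and 361 in Fxr-/- GW4064. Its signal was lower with GW4064 in Fxr+/+ and higher with GW4064 in Fxr-/-, and neither pair of groups overlapped. In Fxr-/-, with 2 arrays against 1, groups did not overlap for 22 of 30 members and for 68.1% of all genes tested. The log2 changes were -1.35 (SE 0.381, limma adjusted p = 0.772) and 0.65 (SE 0.466), and neither passed. The change in Fxr-/- was 0.28 with the replicate block and as low as 0.20 when 1 array was left out. The difference between these changes was 2.00 (SE 0.602), with an unadjusted limma p of 0.0114 and an adjusted p of 0.619.

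Thrsp read 6837 and 5842 in Fxr+/+ vehicle, 12833 and 9384 in Fxr+/+ GW4064, 9354 in Fxr-/- vehicle, and 15860 and 11986 in Fxr-/- GW4064. Signals with GW4064 were above those with vehicle within each label. The log2 change was 0.79 (SE 0.243, limma adjusted p = 0.804) in Fxr+/+ and 0.56 (SE 0.297, limma adjusted p = 0.633) in Fxr-/-. Acsl4, whose main probe read lower with GW4064 than with vehicle in both labels, had log2 changes of -0.60 (limma adjusted p = 0.968) and -0.53. Neither passed. Its other kept probes gave -0.58 and -0.17 in Fxr+/+. In Fxr-/- they gave -0.05 and -0.10, and their signals with GW4064 overlapped the vehicle array.

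Srebf1, Fasn, Acly and Acaca did not pass with GW4064 in Fxr+/+. The log2 change was -0.02 for Srebf1, 0.06 for Fasn, 0.05 for Acly and 0.08 for Acaca, each with an adjusted limma p of 1.0, and leaving out 1 array turned the sign of each. For Scd1 it was -0.51 (95% interval -1.26 to 0.24), with signals of 28210.1 and 33237 under vehicle against 28210.1 and 16370.1, so that the estimate rested on GW4064 replicate 2. For Fads2 and Acsl3 it was -0.52 and -0.47 (limma adjusted p = 1.0 and 0.981).

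**Figure D4:**
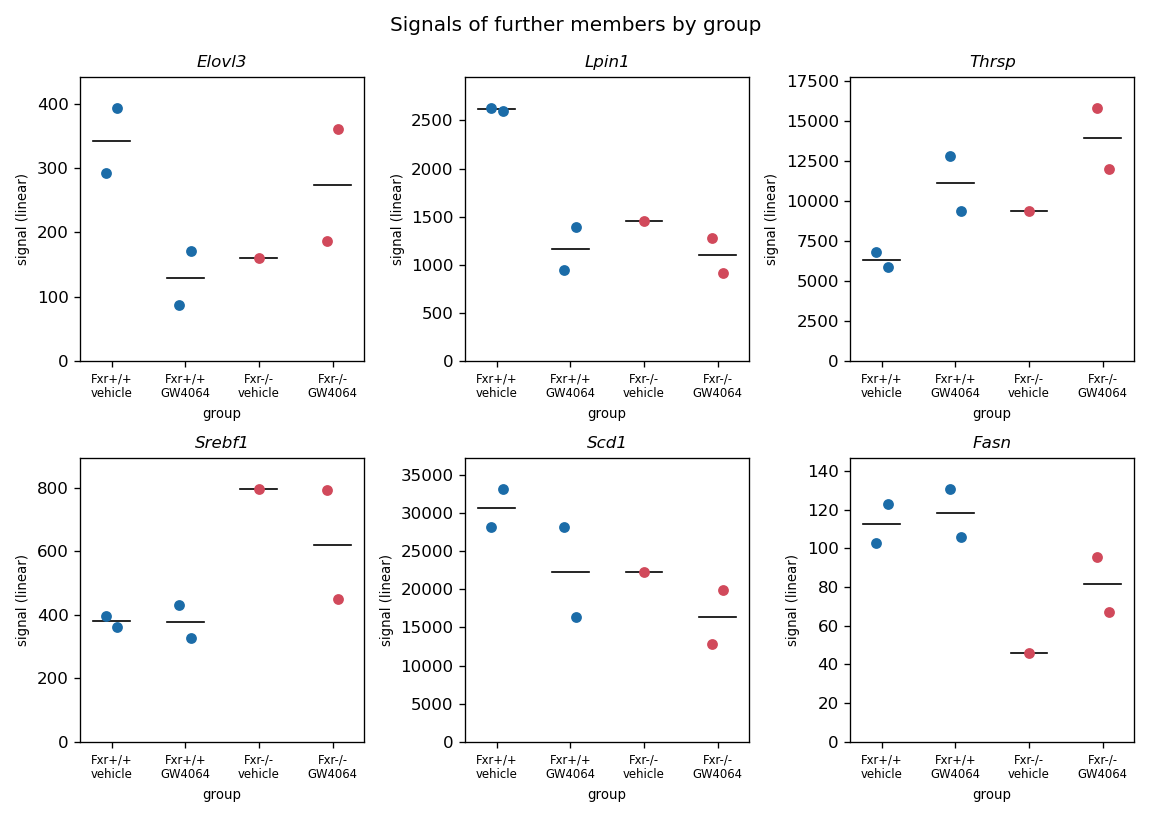
The panels plot linear signals of Elovl3, Lpin1, Thrsp, Srebf1, Scd1 and Fasn, with 1 point per array and a bar at the group mean. Lpin1 is highest in the Fxr+/+ vehicle arrays, at 2634 and 2599. Elovl3 is lower with GW4064 in Fxr+/+ and higher in Fxr-/-, where vehicle is 1 array, and neither change passed.

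In Fxr-/-, where 2 arrays with GW4064 were set against 1 with vehicle, 0 of 30 members passed in limma, against 0.0717% of all genes tested (7 genes). Of the members 0 had an unadjusted p under 0.05, against 9.78% of all genes (955 genes). The lowest adjusted p was 0.512, for Fasn, whose log2 change was 0.64 (SE 0.277). Elovl5 changed by -0.66 (SE 0.304, limma adjusted p = 0.549) and Dgat2 by -0.51 (SE 0.243, limma adjusted p = 0.561). Estimates for Agpat1 and Elovl6 were 0.63 and -0.55.

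The GW4064 changes in Fxr+/+ and in Fxr-/- share no array. Their signs matched for 19 of 30 members (63.3%), against 52.5% of all genes tested. Averaged over both labels, a contrast chosen after the data were seen, the GW4064 change passed for 0 of 30 members in limma, against 0.0922% of all genes (9 genes), with 5 members at an unadjusted p under 0.05, against 9.58% of all genes (936 genes). On their main probes, all 3 acyl-CoA synthetases were below 0 in both labels, from -0.60 to -0.25 in Fxr+/+ and from -0.53 to -0.31 in Fxr-/-. The difference between the changes passed for 0 of 30 members in limma, against 0.0% of all genes (0 genes). At an unadjusted p under 0.05 there were 2 members, Elovl3 and Scd2, against 6.18% of all genes (604 genes). For Scd2 the difference was -0.72 (SE 0.301, limma adjusted p = 0.782).

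**Figure D5:**
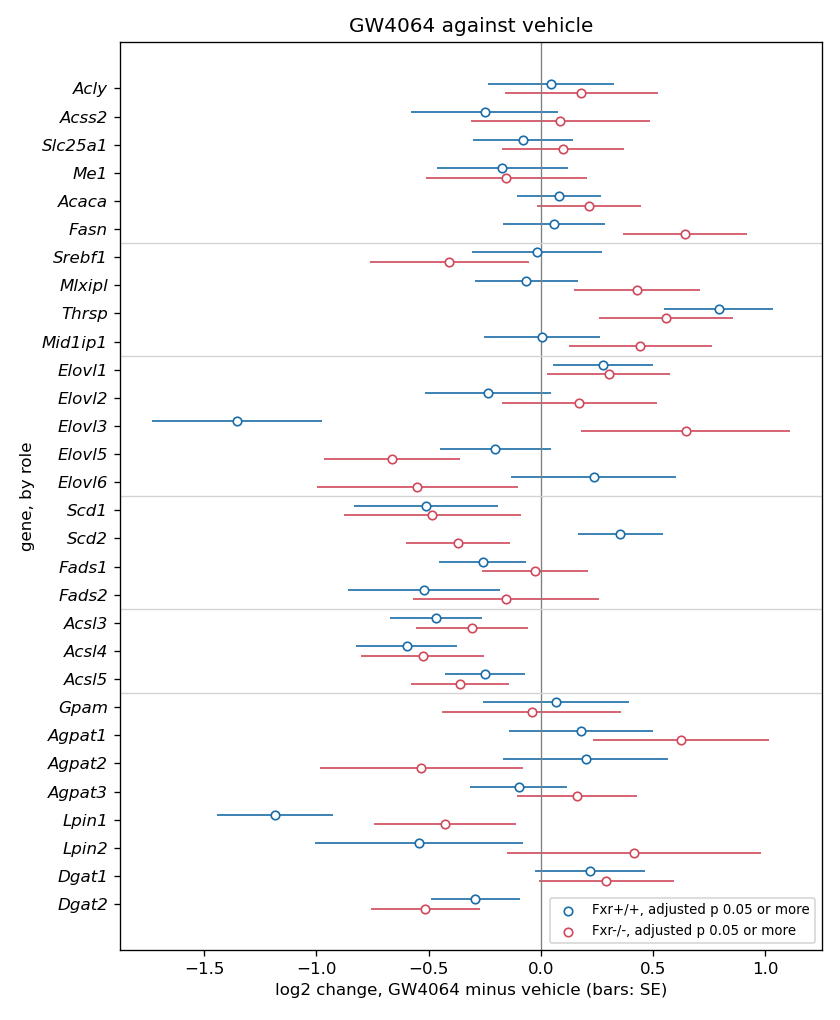
The horizontal axis gives the log2 change with GW4064 for each of the 30 genes, in Fxr+/+ in blue and in Fxr-/- in red, with bars for the standard error. All points are open because 0 genes passed in either label, and Elovl3 and Lpin1 lie farthest to the left in Fxr+/+, at -1.35 and -1.19.

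Other genes of the pathway, 36 tested, were read beside the members. Under GW4064, 9 of the 36 passed between labels, against 14.6% of all genes tested, with 4 higher in Fxr-/- (5.47% of all genes) and 5 lower (9.14%). Mogat1, a monoacylglycerol acyltransferase that offers a second way to diacylglycerol, read 61.5 to 76.4 on the Fxr+/+ arrays and 339 to 435.5 on the Fxr-/- arrays. The sets were far apart, with a log2 difference of 2.25 (SE 0.194, limma adjusted p = 0.000558) under GW4064 and 2.12 (SE 0.237, limma adjusted p = 0.00307) under vehicle. Hacd1, Hacd2 and Hacd3, members of the 3-hydroxyacyl-CoA dehydratase family that serves the elongation cycle, were higher by 1.37, 1.56 and 0.90 under GW4064 (limma adjusted p = 0.0067, 0.00692 and 0.0271). Of the other genes of the elongation cycle, Hacd4, Tecr and Hsd17b12 gave -0.03, -0.22 and 0.06 under GW4064 and did not pass (limma adjusted p = 0.936, 0.474 and 0.88). Gpat3, a further glycerol 3-phosphate acyltransferase beside Gpam, read 132 to 189 in Fxr+/+ and 254 to 278 in Fxr-/-. Gpat4, another, read 6763 to 8424 and 10385.5 to 12128. Their differences of 0.72 and 0.61 under GW4064 did not pass (limma adjusted p = 0.0681 and 0.102). Averaged over both treatments, in the contrast chosen after the data were seen, they were 0.73 and 0.62. There both passed (limma adjusted p = 0.0205 and 0.035), among 11 of the 36 genes (30.6%), against 22.3% of all genes tested.

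Among genes of control, Insig1, which holds SREBP in the endoplasmic reticulum, was lower in Fxr-/- at 535 and 470 against 957 and 1121 under GW4064 (log2 difference -1.02, limma adjusted p = 0.0383). Pparg, a lipogenic nuclear receptor of adipose tissue, was lower at 265.5 and 188 against 449.8 and 399 (-0.88, limma adjusted p = 0.0458). Acss1, a mitochondrial acetyl-CoA synthetase, was at least 1.58-fold lower (limma adjusted p = 0.0191). Me2, a mitochondrial malic enzyme, passed (limma adjusted p = 0.0247) with all its signals within the range of the background, and Nr1h4 was the remaining call (-0.80, limma adjusted p = 0.0277). Under vehicle 2 of the 36 passed (5.56%), Mogat1 and Hacd1, against 6.85% of all genes. With GW4064 against vehicle 0 of the 36 passed in limma in either label, with 2 at an unadjusted p under 0.05 in Fxr+/+ (5.06% of all genes) and 4 in Fxr-/- (9.78% of all genes). Mogat1 stayed past the threshold under GW4064 when each of the 6 arrays that could be left out was left out in turn. The other 8 calls under GW4064 were each lost without at least 1 array. The highest limma adjusted p came without Fxr+/+ GW4064 replicate 2 for 5 of them, at 0.0619 for Hacd1, 0.209 for Insig1, 0.128 for Acss1, 0.148 for Me2 and 0.166 for Nr1h4. It came without Fxr+/+ GW4064 replicate 1 for the other 3, at 0.0508 for Hacd2, 0.17 for Hacd3 and 0.217 for Pparg.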

How the data were processed

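Per the labels' protocols, total liver RNA was made into biotinylated cRNA for Illumina arrays. The authors deposited an intensity per probe (25697 probes, linear scale). From the values, 7 columns were background-subtracted and quantile normalized, with medians of 24.0 to 24.2. No source used here names the software. The other unit, of the column left out, is unknown in the deposited table.

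Signals were taken as log2(max(signal, 0) + 16), which understates changes of dim genes. Probes above their array's median on at least 2 arrays were kept (14041). Each gene used its kept probe with the highest mean. The lowest deposited signal was -39.5, and signals below 39.5 counted as background, and "at least" folds set such signals to it. A model with 1 mean per group was fitted to the 7 arrays (limma 3.58.1, R 4.3.3), with two-sided tests and Benjamini-Hochberg adjustment over 9766 genes. Of the residual degrees of freedom 3 remained. The number of arrays limits the precision. Figures used matplotlib 3.10.9. The fit was tested on simulated data.

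Named genes are all members, and of 4 other pathway lists the genes past the threshold, at most 3 per list with the smallest p. Members, lists and markers were chosen with earlier results of these data known. Replicate numbers pair arrays here only from the data: deviations of same-numbered arrays correlated at 0.233, 0.242 and 0.375 across genes between groups. Alternatives were median centring, quantile normalization applied again, an offset of 1 or 100, no filter or one at percentile 75, other probe rules, another variance model, fewer groups, the replicate block and leaving out arrays.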

Additional observations from a re-analysis of the deposited data

How the results depend on the processing

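The count of members past the threshold with GW4064, in either label or in the difference, was 0 under every alternative run. For Fxr-/- against Fxr+/+ under vehicle, 2 members became 6 with an offset of 100, with trend and robust variance or with the replicate block, 5 with the filter at percentile 75, and 11 when averaged over both treatments, also with the block. Under GW4064, 6 became 2 without a filter and 11 in the averaged contrast with or without the block. Elovl2 and Agpat3 also passed under GW4064 with an offset of 100, with the filter at percentile 75 and with trend and robust variance. Acaca did not pass with an offset of 1 (limma adjusted p = 0.0524). Leaving out 1 array gave 2 to 3 members under vehicle and 3 to 6 under GW4064, the 3 being Acsl4, Elovl5 and Slc25a1, without Fxr+/+ GW4064 replicate 2 or without Fxr-/- GW4064 replicate 2. Fxr-/- vehicle 1 could not be left out. The replicate block changed no other call of a member than those given in the report.

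Among 96 values followed, signs turned when 1 array was left out and under none of the other settings. Elovl6 under vehicle, which was not among the 96, turned from 0.08 to -0.22 with the replicate block. In Fxr+/+, the GW4064 change then ran from -0.206 to 0.173 for Srebf1 (also 0.048), from -0.076 to 0.195 for Fasn (also -0.054), from -0.279 to 0.374 for Acly (also -0.033) and from -0.038 to 0.204 for Acaca. Between labels under GW4064, Acss2 ran from -0.952 to 0.081, Agpat1 from -0.503 to 0.365, Agpat2 from -0.129 to 0.653, Dgat1 from -0.354 to 0.099, Dgat2 from -0.2 to 0.026, Gpam from -0.239 to 0.192, Lpin1 from -0.353 to 0.2, Lpin2 from -0.277 to 0.942 and Mlxipl from -0.18 to 0.344; none of these passed the threshold. Leaving out arrays left 519 of 576 estimates with the same sign and call, and the other settings 989 of 1038. Both totals include settings in which an estimate could not move. Examples are leaving out an array of a group not compared, and fitting only the groups compared. Both shares therefore overstate how far the signs were put to a test. Over all 150 member estimates of the 5 comparisons the replicate block turned 11 signs, 6 for GW4064 in Fxr-/-, 3 for the difference of the GW4064 effects and 2 under vehicle (Elovl6 and Gpam).

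Over all genes, calls between labels under GW4064 went from 1427 to 383 without a filter, where 16593 genes were tested, to 925 with an offset of 1 and to as few as 499 when 1 array was left out. Calls under vehicle went from 669 to 397 with only the groups compared in the fit and to 405 at the lowest when 1 array was left out. The cause was not tested. Without a filter or with an offset of 1 the difference of the GW4064 effects gave 303 and 12 genes, and GW4064 in Fxr-/- 361 and 55, against 0 and 7. GW4064 in Fxr+/+ gave 0 to 11 genes, the 11 with trend and robust variance, against 2.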
